A study of Mus musculus with 4 samples.

Results

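Nuclei carrying transcripts of the adrenal cortex, the outer layer of the adrenal gland that makes corticosteroids, were found in 1 of 4 single-nucleus RNA libraries made from aortic tissue of CA1 knockin ApoE-/- mice. They were chosen by a rule on measured counts. A nucleus of the MTZ-after library with at least 300 genes and at most 10% mitochondrial UMIs (counted RNA molecules) was taken when it had a UMI for at least 4 of 9 adrenal genes. These genes were Cyp11a1, Star, Cyp11b1, Cyp21a1, Hsd3b1, Akr1cl, Caln1, Srd5a2 and Kcnn2. It was also allowed a UMI for at most 1 of 8 genes of other cells, namely Chga, Chgb, Csf1r, Pecam1, Pdgfra, Myh11, Adipoq and Ucp1. The rule took 543 of 28093 kept MTZ-after nuclei, out of 107709 kept nuclei in the series; they are called marker-selected nuclei here.

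All 4 groups were CA1 knockin ApoE-/- mice, which lack apolipoprotein E and carry a knockin of CA1, carbonic anhydrase 1 (mouse gene symbol Car1), and each group was 1 library. MTZ-after mice ate a high-fat diet and received methoxazolamide (MTZ), which the series title names as an inhibitor of CA1, once atherosclerosis was established. MTZ-simultaneous mice received the diet and MTZ together, high-fat mice the diet alone, and untreated mice no treatment. Age, sex, dose, number of mice per library and the site or cells in which the knockin is active are not given in the labels used here. With 1 library a group, no difference between groups can be set against the spread between animals, so values carry 95% intervals that cover counting error only.

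The adrenal cortex turns cholesterol into steroid hormones. Cholesterol enters the cell through the lipoprotein receptor SR-B1, is moved into mitochondria by StAR, and is cut by the side-chain cleavage enzyme CYP11A1 with electrons passed on by FDXR and FDX1. The outer zona glomerulosa makes aldosterone under angiotensin II and potassium, and the inner zona fasciculata makes corticosterone under ACTH. The adrenal glands lie beside the abdominal aorta, and how such nuclei came to be in the MTZ-after library was not tested.

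The same rule took 0 of 19261 MTZ-simultaneous nuclei, 0 of 38016 high-fat nuclei and 0 of 22339 untreated nuclei. A count of 0 allows shares of up to 0.0156%, 0.00789% and 0.0134% in those libraries, against 1.93% in MTZ-after (exact Clopper-Pearson interval 1.78 to 2.10%). The highest number of the 9 markers found in any nucleus was 9 in MTZ-after (11 nuclei), 2 in MTZ-simultaneous (7 nuclei), 1 in high-fat (253 nuclei) and 2 in untreated (6 nuclei). Summed over whole libraries, the 9 markers reached 781 CPM (counts scaled to a total of 1000000) in MTZ-after, 18.6 CPM in MTZ-simultaneous, 5.12 CPM in high-fat and 9.31 CPM in untreated. Star, the cholesterol carrier, had 44.7 CPM in MTZ-after, 15.1 CPM in MTZ-simultaneous, 3.68 CPM in high-fat and 7.44 CPM in untreated, and made up most of the sum in the last 3. Hsd3b1 had 59.1 CPM in MTZ-after and was at 0 in each of the other libraries. Nr5a1, which encodes the adrenal and gonadal transcription factor SF-1 and was not in the rule, had 4.86 CPM in MTZ-after, 0.0264 CPM in MTZ-simultaneous, 0 CPM in high-fat and 0.0145 CPM in untreated. In such whole-library sums, fewer nuclei of a type and less RNA in each cannot be told apart.

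**Figure D1:**
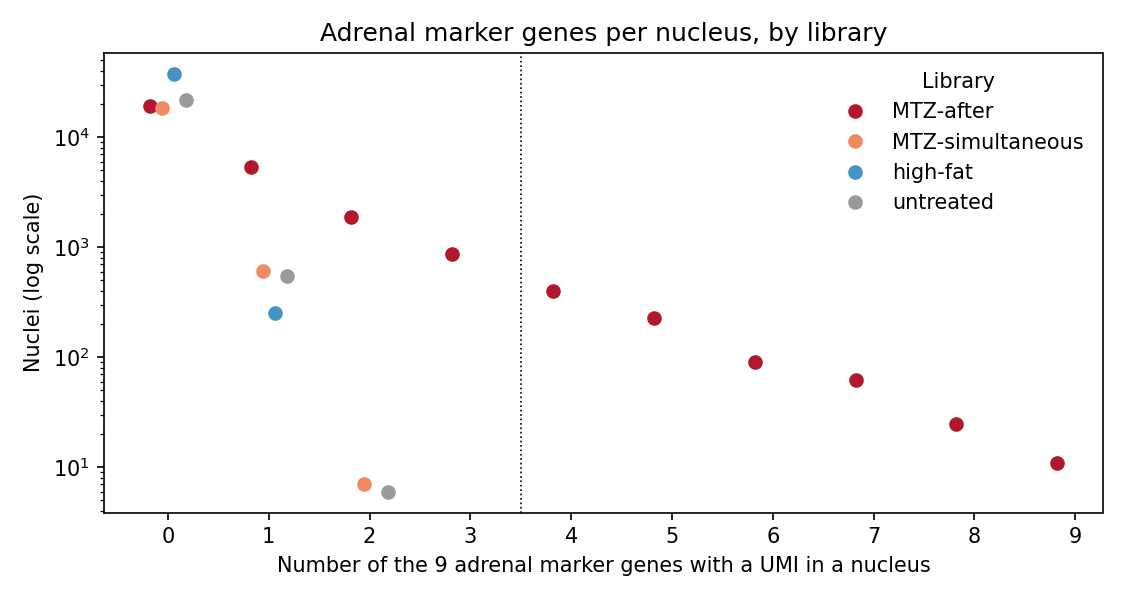
Number of kept nuclei (vertical axis, log scale) by how many of the 9 adrenal marker genes had a UMI (horizontal axis), with 1 point per library and marker number; the dotted line marks the rule's minimum of 4. MTZ-after alone has points right of the line, down to 11 nuclei with all 9 markers.

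The libraries held 28116, 19335, 38114 and 22413 deposited nuclei in MTZ-after, MTZ-simultaneous, high-fat and untreated, of which 23, 74, 98 and 74 failed the thresholds. Median depth of kept nuclei was 828, 1417, 969 and 2026 UMIs in the same order. MTZ-after shared 173, 376 and 171 barcodes with MTZ-simultaneous, high-fat and untreated, and 12 of the 543 marker-selected nuclei had a barcode that also occurred in another library. Marker-selected nuclei were deeper than the other 27550 MTZ-after nuclei, with a median of 1274 UMIs (505 to 9220) against 822 UMIs. Since a deeper nucleus passes a minimum of 4 genes more easily, the rule itself favours depth. Car1, the knocked-in gene, had 63.0 CPM in MTZ-after, 151 CPM in MTZ-simultaneous, 86.4 CPM in high-fat and 128 CPM in untreated as whole libraries, and the deleted Apoe had 8.82 to 10.9 CPM in the 4 libraries. Median mitochondrial shares were 1.29% in marker-selected nuclei and 1.57% in the other nuclei.

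The 9 rule genes chose the nuclei, so their levels are a description. Cyp11a1 (chr9:58006411-58027023, plus strand, GRCm38) had a UMI in 53.4% of marker-selected nuclei, with at most 9 UMIs in a nucleus, and in 6.15% of 65 T or NK nuclei of the same library, a class that should lack it. Its summed level was 590 CPM in marker-selected nuclei and 34.6 CPM in the other nuclei. Hsd3b1, the 3-beta-hydroxysteroid dehydrogenase that follows CYP11A1, had 591 CPM in marker-selected and 44.3 CPM in other nuclei. Cyp21a1, the 21-hydroxylase, had 623 CPM in marker-selected and 59.9 CPM in other nuclei, and Cyp11b1, the 11-beta-hydroxylase that completes corticosterone, had 338 CPM in marker-selected and 21.1 CPM in other nuclei. Star had 376 CPM in marker-selected and 35.6 CPM in other nuclei. Among the markers outside the corticosteroid path, Akr1cl, an aldo-keto reductase gene, had 1150 CPM in marker-selected and 86.0 CPM in other nuclei, and Srd5a2, a steroid 5-alpha-reductase, had 456 CPM in marker-selected and 38.9 CPM in other nuclei. Caln1, a calcium-binding protein gene, had 2029 CPM in marker-selected and 235 CPM in other nuclei, and Kcnn2, a calcium-activated potassium channel, had 638 CPM in marker-selected and 59.0 CPM in other nuclei. Ratios for the 9 genes ran between 8.64 (Caln1) and 17.03 (Cyp11a1). Median depth was 1274 UMIs in marker-selected nuclei and 843 UMIs in T or NK nuclei. Levels are not compared between genes, because longer genes can give more nuclear RNA molecules to count.

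The promoters of a few of these genes are shown because Nr5a1 was measured beside them and SF-1 is known to bind elements related to TCAAGGTCA. RefSeq promoter sequences (GRCm38.p6) matched 5 of the 9 rule genes. The looser form TCAAGGNNA, chosen after the promoters had been read, was searched on both strands in the 250 bases before each start site. It was found in the promoters of Hsd3b1 and Akr1cl among the rule genes, and of Fdx1 and Hsd3b1 among 7 matched genes of the steroid synthesis list. It occurred in 3.83% of 32851 promoters, and the stricter form TCAAGGTCA in 0.387% and in 0 of these genes. The match begins 131 bases before the start site in Hsd3b1 (chr3:98859795-98860044), 192 in Akr1cl (chr1:65032760-65033009) and 74 in Fdx1 (chr9:51963603-51963852). All 3 are read 5′ to 3′ on the minus strand of GRCm38.p6, and capitals mark the match, which lies on the opposite strand in Hsd3b1.
Hsd3b1: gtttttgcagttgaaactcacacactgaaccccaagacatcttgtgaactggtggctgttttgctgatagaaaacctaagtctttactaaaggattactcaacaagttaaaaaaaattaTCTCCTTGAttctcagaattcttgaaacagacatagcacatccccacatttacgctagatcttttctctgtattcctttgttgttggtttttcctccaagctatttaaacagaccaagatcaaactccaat
Akr1cl: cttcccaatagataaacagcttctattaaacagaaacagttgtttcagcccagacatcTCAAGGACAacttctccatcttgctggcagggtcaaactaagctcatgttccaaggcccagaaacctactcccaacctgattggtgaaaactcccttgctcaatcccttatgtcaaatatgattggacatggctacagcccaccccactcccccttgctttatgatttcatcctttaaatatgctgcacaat
Fdx1: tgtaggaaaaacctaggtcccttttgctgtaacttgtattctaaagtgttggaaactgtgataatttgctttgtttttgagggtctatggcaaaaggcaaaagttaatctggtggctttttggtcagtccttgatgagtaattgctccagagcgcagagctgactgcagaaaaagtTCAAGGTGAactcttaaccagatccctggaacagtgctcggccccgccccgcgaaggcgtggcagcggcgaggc
A match is a stretch of letters and does not show binding.

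The level of 11 adrenal genes that the rule did not use was followed over the number of markers: Mc2r, Nr5a1, Fdx1, Fdxr, Scarb1, Agtr1a, Agtr1b, Abcb1b, Tbx3, Pbx3 and Greb1. Of these, 7 stand among the 15 highest genes of the contrast between marker-selected and other nuclei, and all 11 were chosen with such values known, so their levels describe the set and do not check its label. Their summed level was 481 CPM in the 19093 MTZ-after nuclei with 0 markers, 959 CPM with 1 marker, 1711 CPM with 2, 2542 CPM with 3, 3110 CPM with 4, 4232 CPM with 5 and 4689 CPM with 6. The level was thus higher at each further marker up to 6, and it was 5008, 6527 and 5640 CPM with 7, 8 and 9. The numbers of nuclei showed no gap at the threshold, with 862 at 3 markers, 404 at 4 and 226 at 5. Just outside the threshold, 605 nuclei with exactly 3 markers and at most 1 gene of other cells had 3069 CPM of the 11 genes. Just inside it, 265 nuclei with exactly 4 had 3829 CPM. The limit on other-cell genes took out 275 of the 818 nuclei with at least 4 markers (33.6%), whose level of the 11 genes was 2968 CPM, and they include 7 of the 11 nuclei with all 9 markers. Of nuclei with 0 markers, 23.6% carried at least 2 of the other-cell genes.

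Nuclei of other kinds in MTZ-after also carried adrenal markers. The 9 markers summed to 522 CPM in 5741 endothelial nuclei of MTZ-after, against 11.3 CPM in MTZ-simultaneous, 4.11 CPM in high-fat and 5.85 CPM in untreated endothelial nuclei. In fibroblast nuclei the levels were 563 CPM in MTZ-after, against 19.3, 5.85 and 7.02 CPM in MTZ-simultaneous, high-fat and untreated. In B cell nuclei they were 536 CPM in MTZ-after, against 10.7, 10.9 and 11.03 CPM in those libraries. T or NK nuclei had the lowest level of the MTZ-after classes, at 263 CPM (156 to 416 CPM), with a marker UMI in 21.5% of nuclei. Every class with at least 60 nuclei in MTZ-after lay above its own level in the other libraries, with few nuclei to compare in 2 classes. Hepatocyte nuclei had 686 CPM in MTZ-after (126 nuclei) and 323 CPM in MTZ-simultaneous (12 nuclei), with overlapping intervals, and chromaffin nuclei had 318 CPM in MTZ-after (67 nuclei) and 234 CPM in MTZ-simultaneous (1 nucleus). The part of this shared signal in the values of the marker-selected nuclei was not tested.

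**Figure D2:**
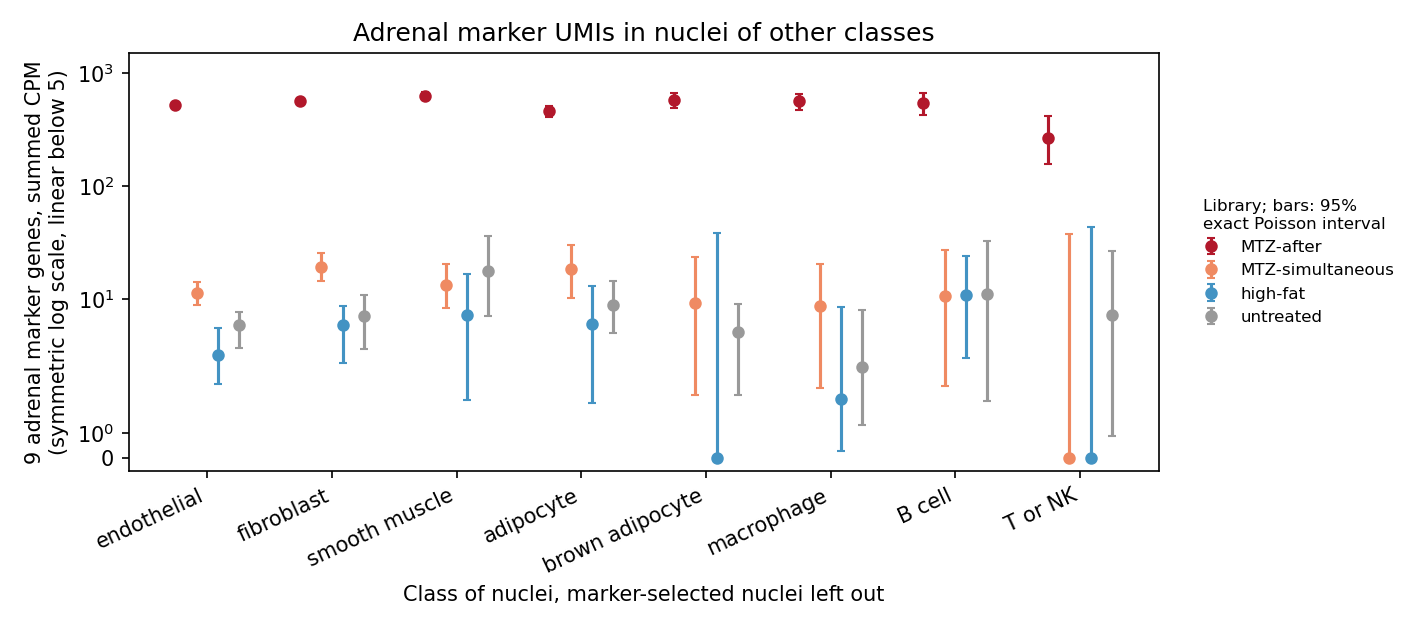
Summed CPM of the 9 adrenal markers (vertical axis, symmetric log scale) in nuclei of 8 classes that were not marker-selected, for each library; points are summed counts of 1 library and bars are 95% exact Poisson intervals. MTZ-after lies highest in each class, from 263 CPM in T or NK nuclei upwards.

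Clustering the 543 nuclei by their own expression gave 5 sub-clusters, and these did not all bear out the label. Sub-clusters 2 and 3 were led by genes of the adrenal zones and together held 245 nuclei (45.1%). They are called zone-type nuclei here. Their 7 endothelial markers summed to 1500 CPM in sub-cluster 2 and 1141 CPM in sub-cluster 3, against 2969 CPM in the other nuclei. These markers include Pecam1, which the rule limits, so the lower sums were partly set by the selection. Pecam1 alone had 494 CPM in sub-cluster 2, 308 CPM in sub-cluster 3 and 1059 CPM in the other nuclei. Sub-cluster 1 held 230 nuclei (42.4%) and stays unnamed. Against the rest of the marker-selected nuclei it was led by Cemip, Fbln5, Col5a2, Col8a1, Nrg3 and Gpc6, mostly matrix genes. The other MTZ-after nuclei were nearer in most of these. Col5a2 had 911 CPM in sub-cluster 1 and 748 CPM in other nuclei, Col8a1 529 and 454 CPM, and Gpc6 991 and 901 CPM. Fbln5 had 483 and 340 CPM, Cemip 95.5 and 20.3 CPM, and Nrg3 155 and 236 CPM. The marker sums of sub-cluster 1 differed from those of the rest of the library by class. It had 2721 CPM of 7 endothelial markers against the same 2969 CPM in the other nuclei, and 1195 CPM of 7 fibroblast markers against 1481 CPM in the other nuclei. Smooth muscle markers summed to 627 CPM in sub-cluster 1 and 957 CPM in other nuclei, adipocyte markers to 658 CPM in sub-cluster 1 and 1035 CPM in other nuclei, and brown adipocyte markers to 230 CPM in sub-cluster 1 and 560 CPM in other nuclei. Chromaffin markers summed to 64.5 CPM in sub-cluster 1 and 115 CPM in other nuclei, and T or NK markers to 191 CPM in sub-cluster 1 and 141 CPM in other nuclei. All of these lists but that of T or NK hold genes the rule limits, so the lower sums were partly set by the selection. Of further lists without such a gene, B cell markers summed to 1554 CPM in sub-cluster 1 and 1983 CPM in other nuclei. In the same order, mesothelial markers had 43.9 and 75.1 CPM, hepatocyte markers 142 and 209 CPM, and kidney tubule markers 10.3 and 10.3 CPM. Some adrenal genes outside the rule were still above the other nuclei in sub-cluster 1, such as Mc2r at 90.3 CPM in sub-cluster 1 and 21.8 CPM in other nuclei, and Greb1 at 145 CPM in sub-cluster 1 and 29.4 CPM in other nuclei. Nr5a1 stood at 5.16 CPM in sub-cluster 1 and at 47.2 CPM in zone-type nuclei, against 4.24 CPM in the other nuclei. In sub-cluster 1, 60.9% of nuclei had exactly 4 markers, the lowest number the rule admits, against 38.0% of zone-type nuclei. Sub-cluster 4 (52 nuclei, 9.58%) was led by the adipocyte genes Thrsp, Plin1, Slc36a2, Pdk4 and Acacb, and its 6 adipocyte markers summed to 2227 CPM, against 1035 CPM in the other nuclei. Sub-cluster 5 (16 nuclei, 2.95%) was led by the liver genes Uox, Cps1, Ces3a and Hnf4aos, and its 7 hepatocyte markers summed to 8839 CPM, against 209 CPM in the other nuclei. The label therefore describes part of the set, and key values are given for all marker-selected nuclei and for the zone-type nuclei. The clustering used 1500 variable genes chosen from these same nuclei, so the genes of a sub-cluster describe it and support nothing.

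Sub-cluster 2 (155 nuclei, 28.5% of marker-selected nuclei) is called zona glomerulosa-like here, from part of the 12 genes of that marker list. Agtr1b, an angiotensin II receptor, had 869 CPM there and 41.6 CPM in sub-cluster 3, a ratio of 20.9 (8.79 to 65.0). Agtr1a, the other angiotensin II receptor of the same type, had 544 CPM in sub-cluster 2 and 225 CPM in sub-cluster 3, and Vsnl1, a calcium sensor known from aldosterone-producing cells, had 311 CPM in sub-cluster 2 and 24.98 CPM in sub-cluster 3. Dab2, an endocytic adaptor that marks the glomerulosa, had 1811 CPM in sub-cluster 2 and 350 CPM in sub-cluster 3. Wnt4, the signal that helps set up this zone, had 160 CPM in sub-cluster 2 and 33.3 CPM in sub-cluster 3, and Lef1, a Wnt effector, had 151 CPM in sub-cluster 2 and 8.33 CPM in sub-cluster 3. Axin2 of the same list was also higher in sub-cluster 2, a ratio of 5.49 (1.33 to 48.5). For Kcnk9 (0.968), Cacna1h (0.854), Shh (1.28) and Nr4a2 (2.31) of that list, the interval of this ratio included 1. So did that of Hsd3b6 (0.220), from 2 counts in sub-cluster 2 and 5 in sub-cluster 3. Pde2a, a phosphodiesterase, had 238 CPM in sub-cluster 2 and 41.6 CPM in sub-cluster 3, and the rule gene Caln1 had 4801 CPM in sub-cluster 2 and 966 CPM in sub-cluster 3. Cyp11b2, the aldosterone synthase, was counted 2 times in all 543 nuclei, and both counts were in sub-cluster 2. Its level there was 9.15 CPM (exact Poisson interval 1.11 to 33.0 CPM), against 0.685 CPM in the other nuclei, so that this zone's defining enzyme was close to undetected.

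Sub-cluster 3 (90 nuclei, 16.6%) was zona fasciculata-like. Abcb1b, a drug and steroid efflux pump, had 279 CPM in sub-cluster 2 and 3672 CPM in sub-cluster 3. Scarb1, which encodes the receptor SR-B1 for HDL cholesterol, had 306 CPM in sub-cluster 2 and 1107 CPM in sub-cluster 3, and Acsbg1, an acyl-CoA synthetase, had 64.0 CPM in sub-cluster 2 and 308 CPM in sub-cluster 3. Of the rule genes, Srd5a2 had 101 CPM in sub-cluster 2 and 1549 CPM in sub-cluster 3, Cyp11b1 had 270 CPM in sub-cluster 2 and 691 CPM in sub-cluster 3, and Cyp11a1 had 594 CPM in sub-cluster 2 and 1365 CPM in sub-cluster 3. Star had 370 CPM in sub-cluster 2 and 708 CPM in sub-cluster 3. Genes that serve either zone were closer, with Fdx1 at 251 CPM in sub-cluster 2 and 192 CPM in sub-cluster 3, a ratio of 1.31 (0.794 to 2.24), and Nr5a1 at 45.7 CPM in sub-cluster 2 and 49.96 CPM in sub-cluster 3, a ratio of 0.915 (0.301 to 3.06). Mc2r, the ACTH receptor, had 274 CPM in sub-cluster 2 and 167 CPM in sub-cluster 3, a ratio of 1.65 (0.979 to 2.89), although it stands in the fasciculata marker list.

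**Figure D3:**
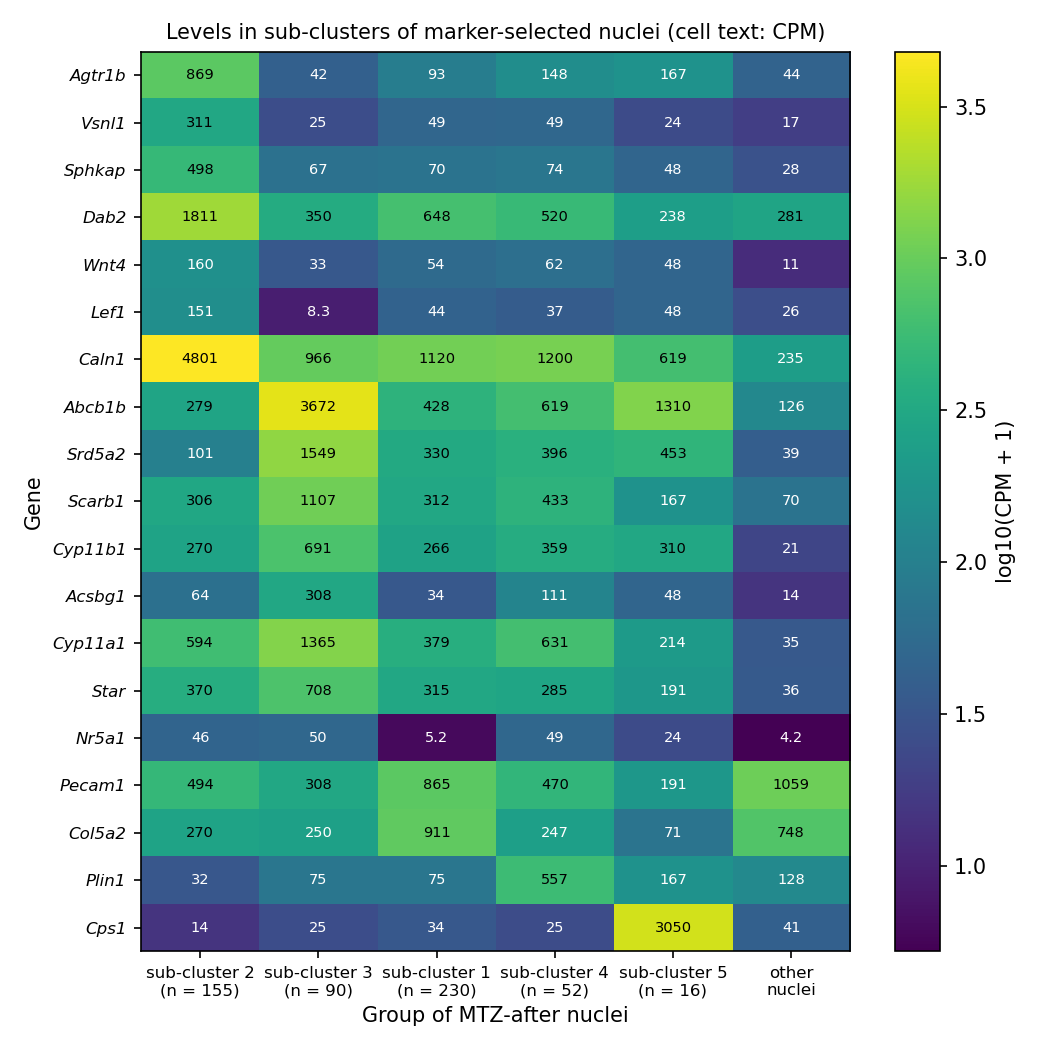
Summed CPM (cell text, and colour as log10 of CPM plus 1) of 19 genes in the 5 sub-clusters of marker-selected nuclei and in the other MTZ-after nuclei. Agtr1b, Vsnl1, Dab2 and Caln1 peak in sub-cluster 2, Abcb1b, Srd5a2 and Scarb1 in sub-cluster 3, Plin1 in sub-cluster 4 and Cps1 in sub-cluster 5, while sub-cluster 1 resembles the other nuclei in Nr5a1 (5.16 against 4.24 CPM).

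Shares of nuclei with a UMI were compared after each nucleus was thinned to 500 UMIs, with T or NK nuclei as the background class. Agtr1b was found in 30.3% of sub-cluster 2 nuclei and 2.22% of sub-cluster 3 nuclei, against 11.97% of all marker-selected nuclei and 1.54% of T or NK nuclei. Abcb1b was found in 14.8% of sub-cluster 2 nuclei and 56.7% of sub-cluster 3 nuclei, against 22.7% of all marker-selected nuclei and 4.62% of T or NK nuclei. Without thinning the shares over all marker-selected nuclei were 22.7% for Agtr1b and 38.5% for Abcb1b, and 1.54% and 9.23% in T or NK nuclei. In single nuclei, Dab2 was present in 78.0% of 123 nuclei with an Agtr1b UMI and in 50.2% of 420 without one. Scarb1 was present in 47.8% of 209 nuclei with an Abcb1b UMI and in 29.9% of 334 without. Nuclei with the first gene were slightly deeper in either pair, with medians of 1423 UMIs with Agtr1b and 1212 without, and of 1393 UMIs with Abcb1b and 1198 without.

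Zones and cells beyond these were not seen as groups. Over all 15949 genes, 1.24% were called higher and 7.07% lower, so few or 0 calls in the short lists below are not read as a trait. Of the X-zone markers, Akr1c18 and Cyp17a1 had 0 counts in the marker-selected nuclei, which allows up to 3.53 CPM each, and Thrb, a thyroid hormone receptor, had 362 CPM in marker-selected and 405 CPM in other nuclei. Pik3c2g, a lipid kinase gene, had 15 counts, at 17.7 CPM in marker-selected and 4.60 CPM in other nuclei, with 262 CPM in the liver-led sub-cluster 5 and 5.90 CPM in zone-type nuclei. The X-zone list had 0 of 3 measured genes called (median -0.16, or 1.74 with its 1 gene at 0 set at a bound of 3 counts). Of the gonadal markers, Insl3, Lhcgr, Foxl2, Amh, Cyp17a1 and Cyp19a1 were at 0, and Inha, an inhibin subunit that adrenal cells also make, had 21 counts (24.7 CPM in marker-selected and 5.12 CPM in other nuclei). The gonadal list had 0 of 7 measured genes called (median 0.11, or 0.28 with its 1 gene at 0 set at that bound). Of the adrenal capsule markers, Gli1 had 1 count, and Rspo3, a Wnt amplifier, had 25.9 CPM in marker-selected and 18.9 CPM in other nuclei, a ratio of 1.37 (0.855 to 2.10); 1 of 6 capsule genes outside the rule, Gli1, was called lower and 0 higher (median -0.07). Of 5 measured sex-chromosome genes 0 were called (median 0.32): Xist, expressed in female cells, was at 0 in the marker-selected nuclei and at 9 counts in the other nuclei, and the Y-linked Ddx3y had 204 CPM in marker-selected and 152 CPM in other nuclei.

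Against the other MTZ-after nuclei, a gene was called when its CPM ratio was at least 2 either way and its higher side had at least 50 counts. Of 15949 genes, 197 were called higher in marker-selected nuclei (1.24%) and 1128 lower (7.07%). The zone-type nuclei alone gave 182 higher (1.14%) and 1862 lower (11.7%). Against the 19093 nuclei with 0 markers, 223 of 14732 genes were called higher (1.51%) and 1165 lower (7.91%). The rule used these contrasts, so the counts describe them. The highest genes outside the rule were Tbx3os1 (808 CPM in marker-selected and 70.7 CPM in other nuclei, ratio 11.4), Trank1 (451 CPM in marker-selected and 50.04 CPM in other nuclei, ratio 9.01), Greb1 (260 CPM in marker-selected and 29.4 CPM in other nuclei, ratio 8.87) and Rerg (393 CPM in marker-selected and 49.3 CPM in other nuclei, ratio 7.99). Greb1 and Rerg are known as hormone-responsive genes. Tbx3os1 (chr5:119570130-119671365, minus strand) overlaps the start of Tbx3 (133 CPM in marker-selected and 18.6 CPM in other nuclei, ratio 7.15), a developmental transcription factor gene on the plus strand. Whether reads of either gene were counted for the other was not tested. Gsg1l, Tmem200a, Dlgap1, Mgarp, Rasgrf1 and Pbx3 followed, with ratios from 5.76 to 8.66. Pbx3, a homeodomain cofactor, had 2478 CPM in marker-selected nuclei and 430 CPM in the other nuclei. In zone-type nuclei these ratios were higher, at 19.0 for Tbx3os1, 15.3 for Greb1 and 8.96 for Pbx3.

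Of the genes called lower, a few of the 8 lowest are given. Lingo2 had 2.36 CPM in marker-selected and 30.2 CPM in other nuclei, and Dcc, an axon guidance receptor, had 5.89 CPM in marker-selected and 45.1 CPM in other nuclei. Syt1, a vesicle calcium sensor, had 22.4 CPM in marker-selected and 110 CPM in other nuclei. Adgrb3, Cntnap2, Kcnip4, Ctnna2 and Wdr17 completed the lowest 8, with ratios from 0.132 to 0.317. The 9 chromaffin markers, 2 of which the rule used, summed to 50.6 CPM in marker-selected nuclei, with 1 of them at 0, and to 115 CPM in the other nuclei. Their part in these lower levels was not tested.

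The calls of each list below are set beside the shares over all 15949 genes, 1.24% higher and 7.07% lower. In zone-type nuclei those shares were 1.14% and 11.7%. Steroid synthesis genes outside the rule were called at the electron carriers. Of 8 measured, Fdx1 (157 CPM in marker-selected and 31.9 CPM in other nuclei, ratio 4.92) and Fdxr (140 CPM in marker-selected and 22.6 CPM in other nuclei, ratio 6.21) were called higher, 0 lower, and the list's median log2 ratio was 0.37 against -0.08 over all genes (0.09 with the genes at 0 set at a bound of 3 counts). Against the nuclei with 0 markers the list's median was -0.26, with the same numbers of calls. Por, which serves the microsomal enzymes, had 130 CPM in marker-selected and 157 CPM in other nuclei, a ratio of 0.823 (0.675 to 0.994). Hsd3b6, a glomerulosa 3-beta-hydroxysteroid dehydrogenase, had only 9 counts, a ratio of 9.85 (4.14 to 21.0), and its sequence is close to that of Hsd3b1, so some of its reads may not be told apart from those of that gene. Of 13 steroid conversion genes outside the rule 0 were called in either direction (median -0.01, or 0.61 with the 3 genes at 0 set at a bound of 3 counts). Akr1b7, an aldo-keto reductase known from the fasciculata, had 45 counts, just short of the minimum, at 53.0 CPM in marker-selected and 5.55 CPM in other nuclei.

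Cholesterol handling was called at the entry and storage steps. Scarb1 had 428 CPM in marker-selected nuclei and 70.0 CPM in the other nuclei, a ratio of 6.10 (5.45 to 6.83), and reached 590 CPM in zone-type nuclei. Soat1, which makes cholesterol esters for storage, had 306 CPM in marker-selected and 116 CPM in other nuclei. These 2 of 21 uptake and storage genes were called higher and 0 lower, against 1.24% and 7.07% of all genes. The list's median was -0.20, below the -0.08 of all genes. In zone-type nuclei 2 were called higher and 4 lower (Cd36, Npc2, Abcg1 and Stard4, the last from 1 count), against 1.14% and 11.7% of all genes. The median there was -0.73 against -0.27 over all genes. Apoe, deleted in these mice, had 12.96 CPM in marker-selected and 10.8 CPM in other nuclei. Among 21 cholesterol synthesis genes 0 were called higher and 3 lower (Pmvk, Idi1 and Sqle), each from at most 3 counts in marker-selected nuclei and with an interval of the ratio that includes 1. Dhcr7, a late enzyme of cholesterol synthesis, had 30 counts at 35.3 CPM in marker-selected and 7.11 CPM in other nuclei, a ratio of 4.97 (3.27 to 7.30).

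In ACTH signalling, calls were higher at the receptor and at cAMP breakdown. Mc2r had 150 CPM in marker-selected nuclei, 236 CPM in zone-type nuclei and 21.8 CPM in the other nuclei, a ratio of 6.87 (5.64 to 8.32) for all marker-selected nuclei. Pde8b, a cAMP phosphodiesterase of the adrenal, had 104 CPM in marker-selected and 19.9 CPM in other nuclei, and Pde2a had 113 CPM in marker-selected and 42.3 CPM in other nuclei. Adcy5, an adenylyl cyclase, was lower, at 42.4 CPM in marker-selected and 91.4 CPM in other nuclei. In all, 3 of 22 genes were called higher and 1 lower, against 1.24% and 7.07% of all genes, with a median of 0.02. Mrap, the partner that carries MC2R to the cell surface and is also made by adipocytes, had 30.6 CPM in marker-selected and 22.6 CPM in other nuclei, a ratio of 1.35 (0.879 to 2.002).

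The list of angiotensin, potassium and calcium signalling had the largest share of higher calls outside the zone lists, with 7 of 17 genes higher, 0 lower and a median of 1.14. Over all genes 1.24% were called higher and 7.07% lower. The receptors Agtr1a (276 CPM in marker-selected and 41.6 CPM in other nuclei) and Agtr1b (294 CPM in marker-selected and 44.5 CPM in other nuclei) each had a ratio of 6.62; their sequences are close, so counting could split reads between them. The background potassium channels that set the membrane potential of glomerulosa cells were also higher, with Kcnk3 at 310 CPM in marker-selected and 72.4 CPM in other nuclei and Kcnk9 at 125 CPM in marker-selected and 19.8 CPM in other nuclei. Kcnma1, a large-conductance potassium channel, had 1396 CPM in marker-selected and 318 CPM in other nuclei, the L-type calcium channel gene Cacna1c 1736 CPM in marker-selected and 379 CPM in other nuclei, and the calcium pump gene Atp2b3 127 CPM in marker-selected and 13.2 CPM in other nuclei. Cacna1h, a T-type calcium channel, had 37 counts at 43.6 CPM in marker-selected and 6.95 CPM in other nuclei. In zone-type nuclei 8 of the 17 were called higher and 1 lower, against 1.14% and 11.7% of all genes. The marker lists of the zones hold some of the same genes, with 6 of 12 glomerulosa markers and 4 of 7 fasciculata markers outside the rule called higher, 0 lower and medians of 2.48 and 2.59.

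Among regulators, 5 of 20 Wnt and hedgehog genes were called higher and 4 lower, against 1.24% and 7.07% of all genes, with a median of 1.04. Wnt4 had 78.9 CPM in marker-selected and 11.4 CPM in other nuclei, Dab2 873 CPM in marker-selected and 281 CPM in other nuclei, and Znrf3, a brake on Wnt receptors, 342 CPM in marker-selected and 146 CPM in other nuclei. Shh, the signal of the outer cortex to the capsule, had 17 counts, a ratio of 7.58 (4.21 to 12.9). The 4 lower genes, Rspo1, Lgr5, Gli1 and Dlk1, had at most 8 counts each in marker-selected nuclei, and the intervals of Gli1 and Dlk1 include 1. Of 17 adrenal transcription factors outside the rule 1 was called higher and 0 lower, with a median of 0.08. Nr5a1, the steroidogenic regulator SF-1, had 23 counts, below the minimum, at 27.1 CPM in marker-selected and 4.24 CPM in other nuclei with a ratio of 6.39 (3.91 to 10.0). Nr0b1, which encodes DAX-1, was at 0 counts, against 1 count in the other nuclei.

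Lists of general cell state are set beside the shares over all 15949 genes, 1.24% called higher and 7.07% lower. With 14 to 18 genes a list, few or 0 calls are not read as a trait of these nuclei. Of 17 antioxidant genes and 14 glucocorticoid response genes, 0 were called in either direction, with medians of -0.01 and 0.02. In zone-type nuclei 2 of the antioxidant genes (Gclm and Hmox1, at 6 counts and 1 count) and 2 of the glucocorticoid response genes (Cdkn1a and Errfi1, at 2 and 18 counts) were called lower and 0 higher, and 1 glucocorticoid response gene was called lower under TMM factors or against nuclei with 0 markers. Of 18 clock genes, Per2 (82.5 CPM in marker-selected and 28.0 CPM in other nuclei) and Rora (2444 CPM in marker-selected and 1098 CPM in other nuclei) were called higher and Cry1 lower from 3 counts. Of 14 proliferation genes 0 were called higher and 2 lower (Cenpf and Kif11, at 1 count each, with intervals that include 1), and the median was -0.55, or -0.31 with the 3 genes at 0 set at their bound of 3 counts. Of 15 immediate early genes 0 were called higher and Atf3 lower, with a median of -0.37. Of 15 carbonic anhydrases 0 were called higher and 3 lower (Car10, Car13 and Car14, at 1 to 3 counts, with intervals that include 1), with a median of -0.36, or -0.23 with its 2 genes at 0 set at that bound. Car1, the mouse CA1 gene that is the knocked-in gene and the named target of MTZ, had 63.6 CPM in marker-selected nuclei and 63.0 CPM in the other nuclei, a ratio of 1.01 (0.756 to 1.32). The labels do not say whether the count covers the knocked-in copy.

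**Figure D4:**
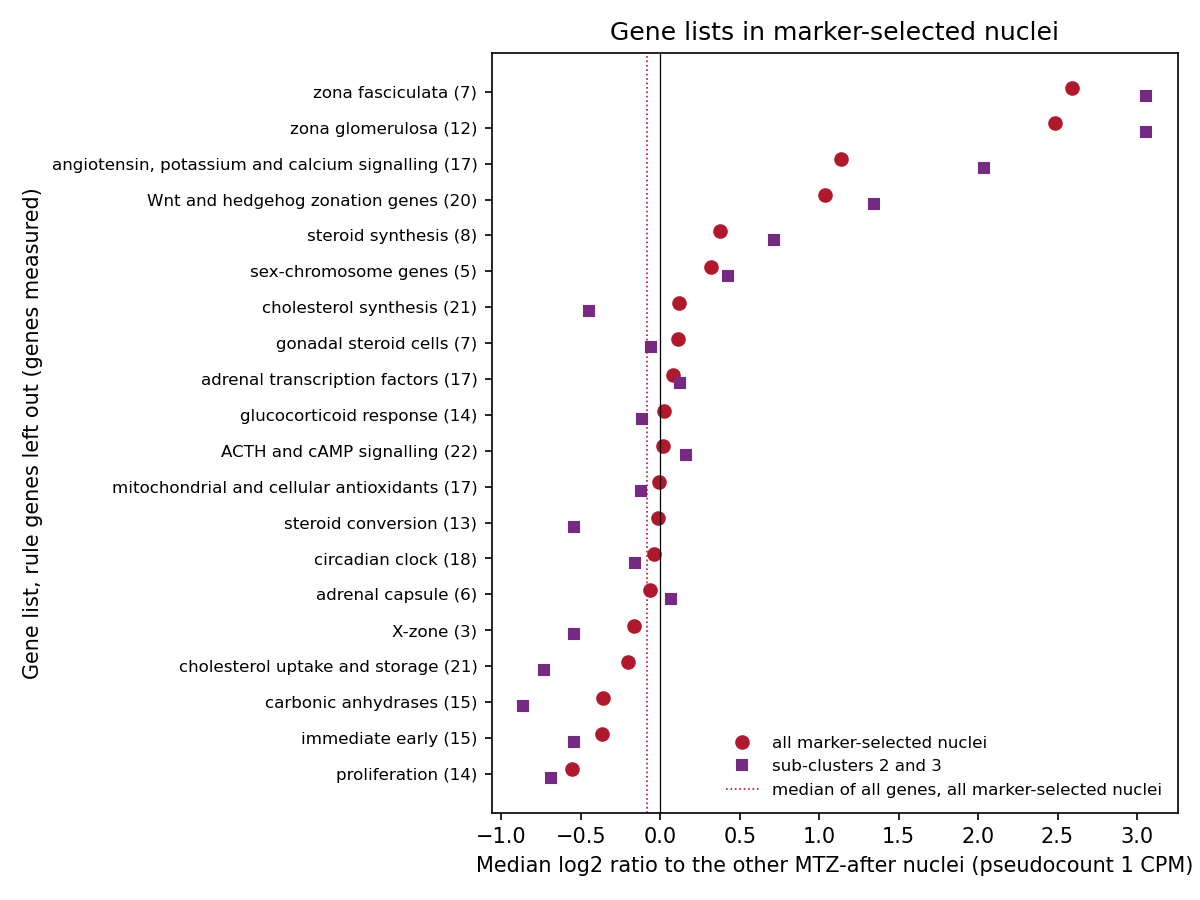
Median log2 ratio to the other MTZ-after nuclei (horizontal axis) for 20 gene lists with the rule genes left out, in all marker-selected nuclei (circles) and in zone-type nuclei of sub-clusters 2 and 3 (squares). The dotted line is the median of all genes in all marker-selected nuclei (-0.08). That of zone-type nuclei (-0.27) is not drawn. The 2 zone lists stand highest, at 2.48 (glomerulosa) and 2.59 (fasciculata) in all marker-selected nuclei.

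**Figure D5:**
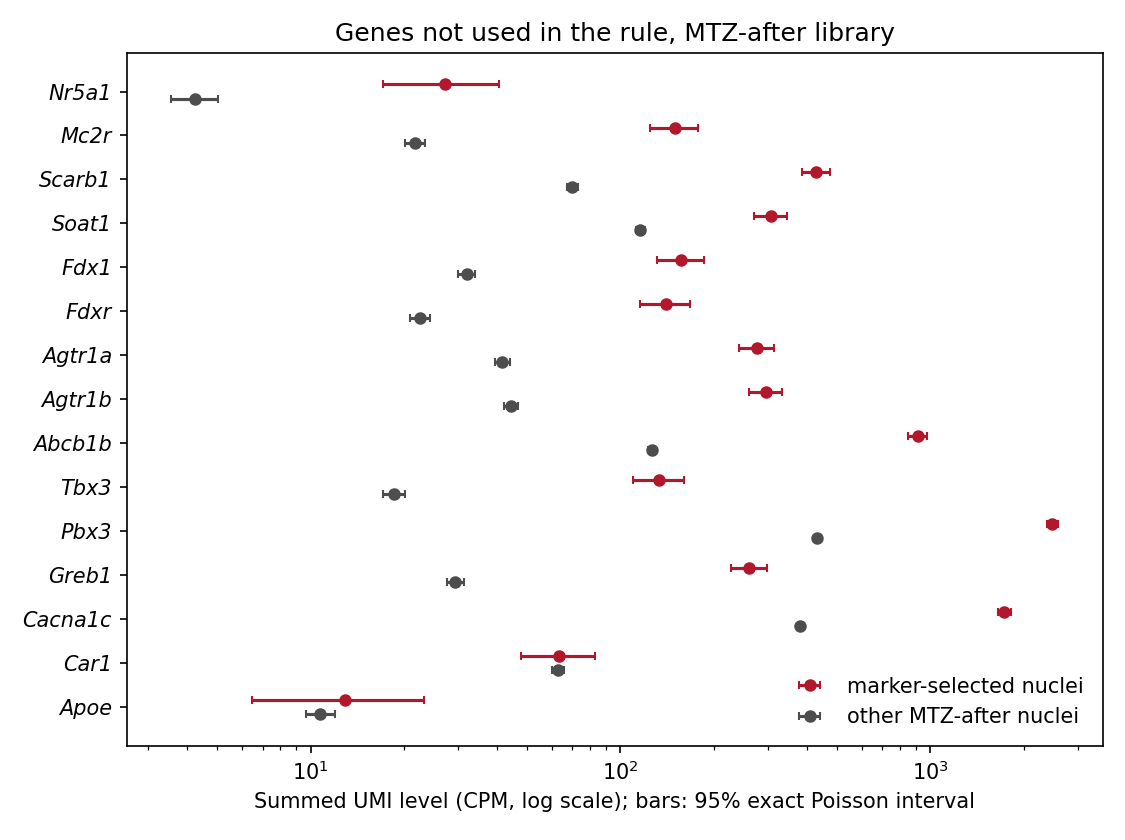
Summed CPM (horizontal axis, log scale) of genes not used in the rule, in marker-selected nuclei (red, upper point of each pair) and in the other MTZ-after nuclei (grey); bars are 95% exact Poisson intervals. Car1 and Apoe overlap between the groups, and Nr5a1, Mc2r, Scarb1 and Agtr1b do not.

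Chromaffin-type nuclei were compared because chromaffin cells, which make catecholamines, lie beside the cortex in the adrenal medulla; they also occur in paraganglia, and the source of these nuclei was not tested. MTZ-after held 64 of them with at most 1 adrenal marker, at a median of 1032 UMIs. Of 3970 genes, 731 were called higher in marker-selected nuclei (18.4%) and 76 lower (1.91%), from sums of 848988 UMIs in marker-selected and 80498 UMIs in chromaffin-type nuclei. Abcb1b had 910 and 12.4 CPM (773 counts and 1 count), Rapgef4, a cAMP sensor, 1132 and 49.7 CPM, and Trank1 451 and 24.8 CPM. Prlr, the prolactin receptor, had 264 and 24.8 CPM. Dcc had 5.89 CPM in marker-selected nuclei and 1677 CPM in chromaffin-type nuclei, and Syt1 had 22.4 and 2137 CPM. Agtr1a differed less, at 276 and 99.4 CPM, a ratio of 2.77 (1.38 to 6.50).

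Brown adipocyte-type nuclei, another lipid-rich cell of the tissue around the aorta, numbered 219 under the same limit. Of 3943 genes, 333 were called higher in marker-selected nuclei (8.45%) and 170 lower (4.31%). Tbx3os1 had 808 CPM in marker-selected and 15.7 CPM in brown adipocyte-type nuclei, Cacna1c 1736 CPM in marker-selected and 165 CPM in brown adipocyte-type nuclei, and Scarb1 428 CPM in marker-selected and 31.4 CPM in brown adipocyte-type nuclei. Pparg, the master regulator of fat cells, had 380 CPM in marker-selected nuclei and 1850 CPM in brown adipocyte-type nuclei, and Pdk4, a fuel-switch kinase, had 174 CPM in marker-selected and 998 CPM in brown adipocyte-type nuclei. Soat1 was nearer, at 306 CPM in marker-selected and 98.2 CPM in brown adipocyte-type nuclei, a ratio of 3.12 (2.07 to 4.91).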

How the data were processed

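Each library had 1 matrix, deposited by the authors, with UMI counts (whole numbers) of 32285 genes. Per the file headers they were made with Cell Ranger 7.0.1, and the submitters' processing notes name STAR and mm10. Per the labels' protocols, nuclei were run on the 10x 3' kit, version 3.1. Neither source says whether reads in introns were counted. Positions of genes were taken from GENCODE vM21 (GRCm38, the assembly also called mm10), which held 99.6% of the gene identifiers.

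Each group was 1 library, so no p-value was computed. The members, the gene lists and the rules were chosen with earlier results of these data known. Counts were summed over nuclei and scaled to CPM by the sum of all genes. Calls needed a ratio of at least 2 and at least 50 counts on the higher side. List medians used genes with at least 10 counts over both sides, rule genes left out, and a pseudocount of 1 CPM. Intervals were exact Poisson (CPM), exact Clopper-Pearson (shares) and exact conditional (ratios), all at 95%. A count of 0 was given a limit of 3 counts. The call step was tested on simulated counts.

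Nuclei were classed by a UMI for at least 3 markers of exactly 1 of 12 classes. Sub-clusters came from 1500 variable genes, 20 principal components, 15 neighbours and Leiden resolution 0.5 (scikit-learn 1.9.0, leidenalg 0.10.2). No doublet caller was used in the main values. Scrublet (scanpy 1.11.5) was an alternative, as were TMM (edgeR 4.0.16) and DESeq2 1.42.0 size factors. Named genes were the rule genes, the 15 highest and 8 lowest called genes by interval bound outside mitochondrial, ribosomal, haemoglobin, sex-chromosome and unnamed genes, the called and most counted list members, a fixed set, and the 6 leading genes per sub-cluster. Genes named beyond these, and those drawn in the plot of genes outside the rule, were chosen after their values were seen. Some genes are not reported here.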

Additional observations from a re-analysis of the deposited data

How the results depend on the processing

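The 0 nuclei in the other 3 libraries stayed at 0 under each of the 5 rule and quality alternatives run there. In MTZ-after the share of 1.93% moved to 4.09% with at least 3 markers and 0.990% with at least 5. It moved to 0.758% with no other-cell gene allowed, 2.91% with no such limit, 2.22% with at least 500 genes and at most 5% mitochondrial UMIs, and 0.580% when every nucleus was thinned to 500 UMIs. Removing the highest 8% of Scrublet scores gave 2.04%; that step took out 2.21% of marker-selected nuclei, 3.91% of sub-cluster 1, 5.77% of sub-cluster 4 and 0 nuclei of sub-clusters 2, 3 and 5, against 7.53% of the other nuclei.

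Against the other MTZ-after nuclei, genes called higher numbered 2478 with no count minimum and 80 with a minimum of 200, and 59 for sub-cluster 1 alone. Genes called lower numbered 576 with a minimum of 200, 1938 with equal weight for each nucleus and 1862 for sub-clusters 2 and 3, the last with 370 of the 1128 main calls shared. The 2 alternatives by sub-cluster were chosen after seeing the data. TMM and DESeq2 factors shifted log2 ratios by -0.03 and -0.01, and called 191 and 196 genes higher.

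Against chromaffin-type nuclei, the calls were 1314 higher and 3224 lower with no minimum, and 154 and 7 with a minimum of 200. Against brown adipocyte-type nuclei they were 1706 and 2253 with no minimum, 96 and 41 with a minimum of 200, and 532 higher with at least 4 class markers. Leiden resolution 1 gave 8 sub-clusters in place of 5, and its best matches held 60.6% of sub-cluster 2, 40.0% of sub-cluster 1 and 97.8% of sub-cluster 3. At resolution 0.3 the best matches held 59.4% of sub-cluster 2 and 96.7% of sub-cluster 3, and with another seed 88.4% and 97.8%. The cause of these moves was not tested, apart from the minimum, which acts through the number of genes that can pass. In sub-clusters 2 and 3 the median log2 ratio was -0.45 for cholesterol synthesis (0.21 with genes at 0 at the bound), -0.54 for steroid conversion (1.23 at the bound), -0.73 for uptake and storage (-0.62) and -0.86 for carbonic anhydrases (0.50), against 0.12, -0.01, -0.20 and -0.36 in all marker-selected nuclei. The median of all genes moved too, from -0.08 in all marker-selected nuclei to -0.27 (0.30 at the bound) in sub-clusters 2 and 3. The zone lists moved to 3.06 each there. No paired analysis was possible because each group has 1 library. Depth limits genes of few counts, such as Cyp11b2, Nr5a1 and Shh.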

Other observations

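Sub-cluster 5, with 16 nuclei, had the 9 adrenal markers at 3479 CPM, the lowest level of the 5 sub-clusters. The rule chose these nuclei by the same markers, so that level was partly set by the selection. Liver transcripts were counted beside them in sub-cluster 5. Cps1, a urea cycle enzyme, had 3050 CPM there and 40.9 CPM in the other MTZ-after nuclei, and Nr1h4, the bile acid receptor, had 786 and 20.8 CPM. Among nuclei that were not marker-selected, MTZ-after held 126 of the hepatocyte class, whose 9 adrenal markers summed to 686 CPM and MTZ-simultaneous held 12 and high-fat 2.

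Abcb1b, which leads the fasciculata-like nuclei, was also counted at 150 CPM over the whole MTZ-simultaneous library, where no nucleus met the rule, against 46.4 CPM in high-fat and 57.4 CPM in untreated, and at 148 CPM in MTZ-after. Mesothelial nuclei of MTZ-simultaneous and untreated carried 104 and 113 CPM of the 9 markers from 233 and 120 nuclei, above the other classes of those libraries with at least 60 nuclei.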
